A study of Mus musculus with 12 samples.

Results

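The respiratory complexes III, IV and V and cytochrome c were examined through their nuclear-encoded genes in livers of mice with and without Mettl5. Genes were taken by name from the table of normalised values, as every gene whose symbol began with Uqcr, with Cox and a digit from 4 to 8, or with Atp5, together with Cyc1 and Cycs. The rule found 35 of 10607 genes, 9 of complex III, 11 of complex IV and 15 of complex V, and Cycs itself was not among the genes of that table. The names were checked against lists of subunits, and all 35 were subunits or, for Cox7a2l, a factor that joins complexes III and IV.

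The complexes sit in the inner mitochondrial membrane. Complex III takes electrons from ubiquinol and hands them to cytochrome c, a small soluble haem protein, and pumps protons across the membrane as it does so. Complex IV passes the electrons from cytochrome c to oxygen, which makes water and moves further protons. Complex V, the ATP synthase, lets the protons return through a ring of c subunits whose rotation drives ATP formation in the F1 head. A few core subunits are encoded by mitochondrial DNA, and all the others are made by cytosolic ribosomes from nuclear genes and imported. In hepatocytes this machinery supplies ATP for gluconeogenesis, ureagenesis and protein secretion.

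METTL5 places m6A on 18S rRNA of the small ribosomal subunit, and the question of the experiment was whether its absence changes translation in liver. Wild-type (WT) mice were compared with Mettl5 knockout (KO) littermates, 3 of each. The WT and the KO mouse with the same number were taken as 1 litter, which gives 3 litters, although the sample titles name no litter. KO mice carried a floxed exon 2 that CMV-Cre had removed throughout the body, from stem cells of a C57BL/6 and 129S6 hybrid whose offspring were backcrossed to B6, and the age and sex of individual mice were not used here. All livers of both genotypes were snap-frozen and lysed in cycloheximide, which stalls ribosomes on their mRNAs. Each lysate gave an input library, which counts RNA, and a second one from ribosome-protected fragments (RPF, or footprints), which counts the pieces of mRNA held inside ribosomes after digestion by micrococcal nuclease. Translation efficiency (TE) is the log2 ratio of footprints to input of a gene. In whole liver, a change in the number of hepatocytes and a change in RNA per hepatocyte cannot be told apart.

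Over the genes of the table, input libraries held 2398804 to 5121304 reads and RPF libraries 4623826 to 9184242. Normalised values are reads divided by a factor for each library, so they are comparable between mice, but a gene's length is still in them. Mettl5 had 21, 18 and 12 input counts in WT mice and 13, 7 and 5 in KO mice, and 67, 56 and 103 RPF reads in WT against 12, 9 and 10 in KO (RPF log2 fold change −2.64, adjusted p = 0.00504 by limma). Its input and TE log2 fold changes, −1.59 and −1.16, did not pass (adjusted p = 0.999 by edgeR and 0.998 by limma). The absence of a call in input or TE is therefore not evidence of no change. The 5 hepatocyte markers summed to 66839 to 83728 CPM (counts scaled to the summed counts of the table's genes) in WT and 68651 to 84901 in KO. Markers of Kupffer, endothelial and stellate cells and of bile ducts summed to at most 321, erythroid markers to at most 192. The stellate cell markers, 4 genes that were all detected in every library, summed to 204 to 218 in WT and 226 to 321 in KO, and their part in the results below was not tested. Markers of brown adipocytes, which are rich in these complexes, gave 0 to 1 counts per library. The 5 skeletal muscle markers gave 24 to 287 counts per library, nearly all of them on Myh4.

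Together the 35 genes took 0.489% to 0.578% of the input reads and 0.978% to 1.13% of the RPF reads of the table. To compare genes, input was divided by the length of the annotated exons and RPF by the length of the longest coding sequence (CDS), each in kb. In WT the median was 207 input reads per exon kb, against 17.3 for all 8994 genes tested in RPF, and 1779 RPF reads per coding kb, against 52.7. By complex, the median RPF level per coding kb was 1704 in complex III, 1699.7 in complex IV and 2527 in complex V. Their CDS were short, 156 to 1659 bases with a median of 333, against a median of 1452 over the genes tested.

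The densest footprints belonged to small subunits of the ATP synthase. Atp5e, the epsilon subunit of the rotor, had 13936 ± 2829 RPF reads per coding kb in WT (SD, n = 3), Atp5j, coupling factor 6 of the peripheral stalk, had 12644 ± 1596, and Atp5g3, which encodes the proton-carrying c subunit, had 9706 ± 2288. Uqcrh, the hinge protein of complex III, followed with 9142 ± 1333. Atp5e and Atp5j differed by less than their spread, as did Atp5g3 and Uqcrh. In complex IV, Cox5a with 4835 ± 410.5 and Cox4i1 with 4752 ± 349.6 were highest and differed by less than their spread. The subunits of the catalytic hexamer had the most input reads per exon kb instead, with Atp5a1, the alpha subunit, at 1302 ± 25 and Atp5b, the beta subunit, at 956 ± 31.1 input reads per exon kb, while their RPF levels per coding kb were 5722 ± 52 and 4799 ± 339. Density also differed within a complex. In complex III the core proteins Uqcrc1 and Uqcrc2 had 1704 ± 99.4 and 1678 ± 286 RPF reads per coding kb, a difference within their spread, but Cyc1, the haem-bearing cytochrome c1, had 655 ± 42.4 and Uqcrb 164 ± 7.63.

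The ratio of footprints to RNA spread widely among proteins that work side by side. As the log2 of RPF per coding kb over input per exon kb in WT, it was 5.70 ± 0.32 for Atp5j, 5.38 ± 0.045 for Atp5e, 5.12 ± 0.45 for Atp5f1, the b subunit of the stalk, and 4.63 ± 0.048 for Cox5a. The median of the 35 genes was 2.92 and that of all genes tested 1.64. At the other end stood Cox7a2l at −3.42 ± 1.03, Uqcrb at −0.18 ± 0.10, Atp5l, the g subunit, at 0.023 ± 0.79, and Atp5h, the d subunit of the stalk, at 0.41 ± 0.27. Uqcrb, Atp5l and Atp5h could not be ordered beyond the spread of Atp5l. Cox7a2l, which tethers complex III to complex IV, had 123, 98.7 and 138 normalised input reads in WT and 133, 118 and 129.5 in KO. Its footprints were far fewer, with 5.23, 3.41 and 1.55 normalised RPF reads in WT and 3.48, 4.3 and 3.82 in KO, and stayed below its input in every mouse. Atp5l likewise had 66, 56.4 and 80 normalised input reads in WT and 60.5, 59.8 and 80 in KO, and 2.61, 5.12 and 2.58 normalised RPF reads in WT and 4.17, 0.615 and 4.78 in KO. The exon length covers all annotated isoforms of a gene, and a longer one raises this ratio, so it orders genes only roughly.

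Many of these genes have processed copies in the mouse genome, and the authors kept only RPF reads that mapped to a single location. Each CDS was therefore cut into all windows of 28 bases, a length within the range of the footprints, and every window was searched for an exact copy outside its own gene in the reference genome (GRCm38, the sequence of mm10). The authors' mapping allowed mismatches, so a share of 0% here does not exclude near copies. Whether their footprints were placed on the genome or on transcripts is not given. Of the 35 genes, 26 had at least 1 copied window (74.3%) and 9 had copies of over 50% of windows (25.7%), against 5.06% of the 10597 genes of the table with a CDS. The median share of copied windows was 28% in these genes and 0% over the genes tested. Shares were 100% for Atp5l, 100% for Atp5md, 91.8% for Uqcrb, 86.2% for Atp5h, 84.4% for Cox5b, 69.2% for Cox6c, 63.8% for Atp5f1, 63.5% for Cox7a2l and 60.3% for Uqcr11. They were 0% for Atp5e, Atp5g3, Atp5d, Atp5a1, Cyc1, Uqcrc2, Uqcrfs1, Uqcrq and Cox7a1.

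The coding sequences below show the range, read from the reference genome by the exons of the annotation, 5′ to 3′, from the start codon and without the stop codon, with capitals for bases that lie in a window copied elsewhere. Atp5e (chromosome 2 from 174461072 to 174464105 on the minus strand) has no copied window. Cox6c (chromosome 15 from 35925886 to 35938246 on the minus strand) and Uqcr11 (chromosome 10 from 80402997 to 80406830 on the minus strand) are copied in part. Cox7c (chromosome 13 from 86044816 to 86046904 on the minus strand) and Atp5md (chromosome 19 from 47083464 to 47090647 on the minus strand) are copied throughout.
Atp5e: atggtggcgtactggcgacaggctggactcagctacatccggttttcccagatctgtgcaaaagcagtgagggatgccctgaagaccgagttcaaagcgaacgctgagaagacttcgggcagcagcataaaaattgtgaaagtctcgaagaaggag
Cox6c: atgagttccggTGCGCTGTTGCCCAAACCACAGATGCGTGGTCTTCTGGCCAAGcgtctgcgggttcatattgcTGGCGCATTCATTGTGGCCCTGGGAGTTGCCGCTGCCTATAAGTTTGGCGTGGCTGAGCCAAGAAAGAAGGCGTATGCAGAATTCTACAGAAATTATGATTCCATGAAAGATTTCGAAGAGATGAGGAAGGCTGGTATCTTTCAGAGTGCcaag
Uqcr11: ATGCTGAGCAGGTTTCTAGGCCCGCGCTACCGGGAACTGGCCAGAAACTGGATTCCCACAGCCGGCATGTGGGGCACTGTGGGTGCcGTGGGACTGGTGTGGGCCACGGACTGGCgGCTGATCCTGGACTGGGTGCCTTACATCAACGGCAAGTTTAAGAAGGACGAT
Cox7c: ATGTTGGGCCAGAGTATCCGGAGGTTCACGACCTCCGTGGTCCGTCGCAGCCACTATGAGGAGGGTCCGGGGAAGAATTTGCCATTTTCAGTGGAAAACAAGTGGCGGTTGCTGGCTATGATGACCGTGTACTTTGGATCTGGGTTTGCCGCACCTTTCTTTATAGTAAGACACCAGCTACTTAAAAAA
Atp5md: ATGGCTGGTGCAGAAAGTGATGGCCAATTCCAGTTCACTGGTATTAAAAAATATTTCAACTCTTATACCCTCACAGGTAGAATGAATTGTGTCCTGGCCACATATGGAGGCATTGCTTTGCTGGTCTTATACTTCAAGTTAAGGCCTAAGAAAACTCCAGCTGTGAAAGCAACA
Of the bases printed, 193 of 228 in Cox6c and 166 of 168 in Uqcr11 lie in at least 1 copied window. By share of windows the order is the reverse, with 69.2% copied in Cox6c and 60.3% in Uqcr11. The longest copies of the CDS are annotated as processed pseudogenes. For Cox6c it is Cox6c2 on chromosome 12 from 56373600 to 56373812, for Uqcr11 Gm16418 on chromosome 1 from 166431708 to 166431875, for Cox7c Gm12338 on chromosome 11 from 75599766 to 75599954, and for Atp5md Gm14539 on chromosome X from 20581141 to 20581314. For Atp5l it is Gm10221 on chromosome 5 from 24581554 to 24581862, one of 21 places with a copied window of that gene. The copies themselves had few uniquely mapped input counts in any library, 0 to 9 for Cox6c2, 1 to 6 for Gm16418, 0 to 2 for Gm12338, 0 to 4 for Gm14539 and 0 to 1 for Gm10221.

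The lowest footprint ratios belonged to genes with many copied windows, though other such genes lay high. The 9 genes with over 50% of windows copied had a median log2 ratio of 1.58, from −3.42 to 5.12, and the 12 genes with under 5% had 3.02, from 1.67 to 5.38. Over all genes of the table the corresponding medians were 1.05 for 536 genes and 1.56 for 8844 genes. Across the 35 genes the share of copied windows and the ratio had a Spearman rho of −0.21, which is weak and is given as a description, with the same libraries behind every point. Atp5md, copied throughout, still had a log2 ratio of 4.50 ± 0.33, with 149, 157 and 187 normalised RPF reads in WT and 181, 211 and 182 in KO, and Atp5f1 had 5.12 ± 0.45. Conversely Uqcrfs1, the Rieske iron-sulfur protein, had no copied window and a ratio of 1.67 ± 0.30. The part of lost multimapping reads in the low footprint counts was not tested.

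**Figure D1:**
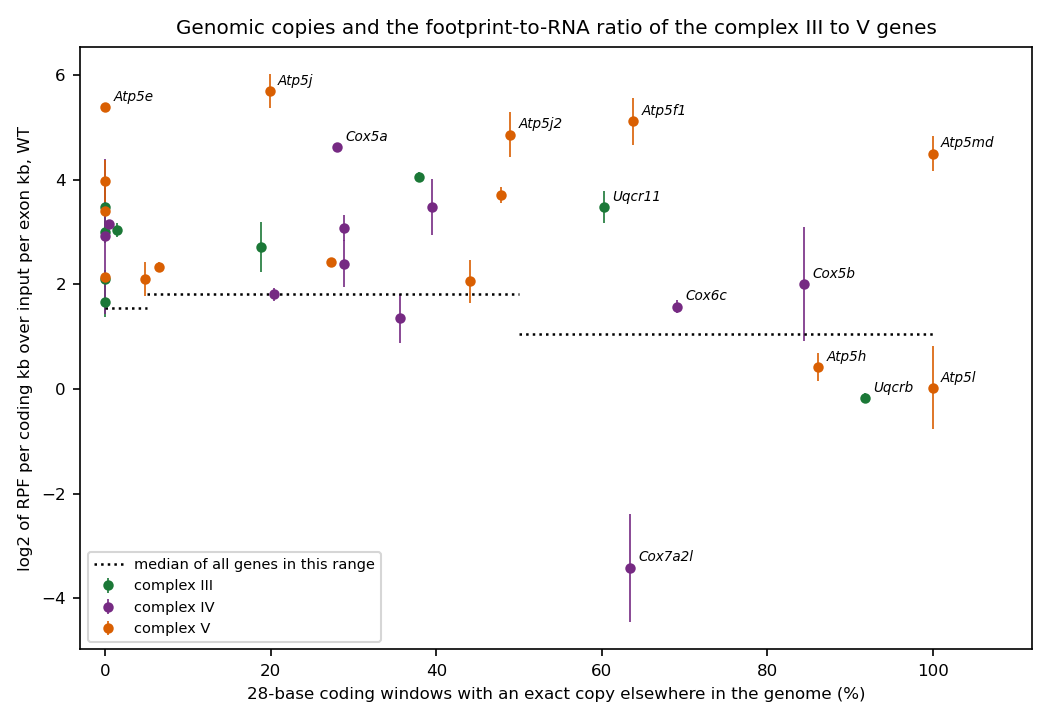
Share of 28-base coding windows with an exact copy elsewhere in the genome (percent) against the log2 ratio of RPF per coding kb to input per exon kb in WT, for the 35 genes coloured by complex, with SD over 3 mice as bars and dotted lines for the median of all genes in each range of the share. Cox7a2l, Uqcrb, Atp5l and Atp5h lie lowest, all with over 50% of windows copied, while Atp5md at 100% and Atp5f1 at 63.8% lie high.

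Most genes that the same name pattern finds only in the input count table were of 2 kinds. The others were Cox6c2, the copy of Cox6c named above, and another identifier of Atp5o listed at 0 in every library. Of the first kind, Cycs, cytochrome c itself, had 28, 39 and 57 counts in WT and 57, 41 and 31 in KO. Cox7c had 30, 48 and 49 in WT and 106, 31 and 48 in KO, and the other c subunit genes had 44, 44 and 78 against 153, 54 and 70 for Atp5g1 and 10, 13 and 16 against 27, 12 and 10 for Atp5g2. All of them were present in liver RNA, with 100% of coding windows copied in each, and no RPF or TE value of theirs was analysed here. Their input did not pass the test, with log2 fold changes from −0.42 for Cycs to 0.19 for Atp5g1 (adjusted p = 0.999 or more by edgeR). The second kind were forms known from other tissues. Cox4i2 of lung, Cox6a2 and Cox8b of muscle, and Cox6b2, Cox7b2 and Cox8c of testis had at most 1 count in any library.

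Paralogues of 1 subunit were unequal in liver. Cox4i1, Cox6a1 and Cox8a were the forms seen in liver, with 531 ± 16.5, 676 ± 50.2 and 434 ± 120.2 input reads per exon kb in WT. Cox7a2, the common form of its subunit, had 293 ± 35.2, Cox7a2l 81 ± 13.3, and Cox7a1, the heart and muscle form, 10.8 ± 8.5. Among the c subunit genes, which encode a single mature protein with different import signals, Atp5g3 alone was in the table, with 605 ± 38.5 input reads per exon kb. Because all coding windows of Atp5g1 and Atp5g2 have copies, their RNA levels relative to Atp5g3 are uncertain.

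Input RNA of the complexes was examined next for an effect of Mettl5 loss. Of the 35 genes, 34 passed the filter on low counts, all but Cox7a1, which had 3.67, 11 and 2.62 normalised input reads in WT and 8.55, 9.3 and 12.8 in KO. By edgeR's quasi-likelihood test, none of the 34 had an adjusted p under 0.05 (0% of 10057 genes tested), and 0 had an unadjusted p under 0.05, where 3.46% of all genes did. DESeq2 also called 0. The median log2 fold change, KO minus WT, was 0.023 for the 34 genes and −0.00026 for all genes. Of the 34, 20 were positive and 14 negative, where 50% of all genes were negative. Without KO mouse 1 the median was 0.076, against 0.0066 for all genes. In that fit 31 were positive and 3 negative, where 49.1% of all genes were negative. With all mice, the median was 0.030 in complex III, 0.016 in complex IV and 0.015 in complex V, and all values lay between −0.23 and 0.15.

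The 3 genes with the smallest input p were taken from each complex. Atp5f1 had 394, 326 and 376 normalised input reads in WT mice 1, 2 and 3 and 279, 346 and 299 in KO mice 1, 2 and 3, a log2 fold change of −0.23 (SE 0.15, adjusted p = 0.999 by edgeR). Atp5d, the delta subunit of the rotor, had 759, 755 and 755 normalised input reads in WT and 573, 692 and 702 in KO. Every KO mouse lay below every WT mouse, but the share of all genes with such a separation was not computed for input. The log2 fold change of Atp5d was −0.18 (SE 0.13, adjusted p = 0.999 by edgeR). Atp5o, which joins the stalk to the F1 head, had 0.12 (SE 0.15, adjusted p = 0.999 by edgeR). In complex III they were Uqcr11 at 0.13 (SE 0.15, adjusted p = 0.999 by edgeR), Uqcrfs1 at 0.082 (SE 0.15, adjusted p = 0.999 by edgeR) and Uqcrc1 at −0.070 (SE 0.14, adjusted p = 0.999 by edgeR). In complex IV they were Cox8a at 0.15 (SE 0.22, adjusted p = 0.999 by edgeR), Cox7a2l at 0.11 (SE 0.18, adjusted p = 0.999 by edgeR) and Cox5a at 0.080 (SE 0.14, adjusted p = 0.999 by edgeR). The summed input of complex V was 13768, 13656 and 14026 normalised reads in WT and 12026, 14629.5 and 14407 in KO, in which the genotypes overlapped.

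The summed footprints of the ATP synthase were lower in every KO liver than in any WT liver, while no single gene passed the test over all genes. The normalised RPF reads of its 15 genes summed to 37198, 34648 and 34273 in WT mice 1, 2 and 3 and to 29308, 29384 and 27374 in KO mice 1, 2 and 3. Every KO mouse lay below every WT mouse, and KO was 81.1% of WT on the means, and 78.8%, 84.8% and 79.9% within litters 1, 2 and 3. The same percentage was 83.3% without WT mouse 1 and 80.2% without KO mouse 1. For input of complex V it was 99.1%. The 4 genes with the widest difference, Atp5a1, Atp5j, Atp5g3 and Atp5e, made up 79.3% of the difference in the sum. Summed RPF of complex III was 12329.5, 11408 and 12033 in WT and 10634, 11481 and 11324 in KO (93.5%), and that of complex IV 7812, 6831 and 7052 and 7047, 6684 and 6813 (94.7%), with overlapping genotypes in both. The sums are a description, without a test, and whether the complexes differed from each other was not tested.

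**Figure D2:**
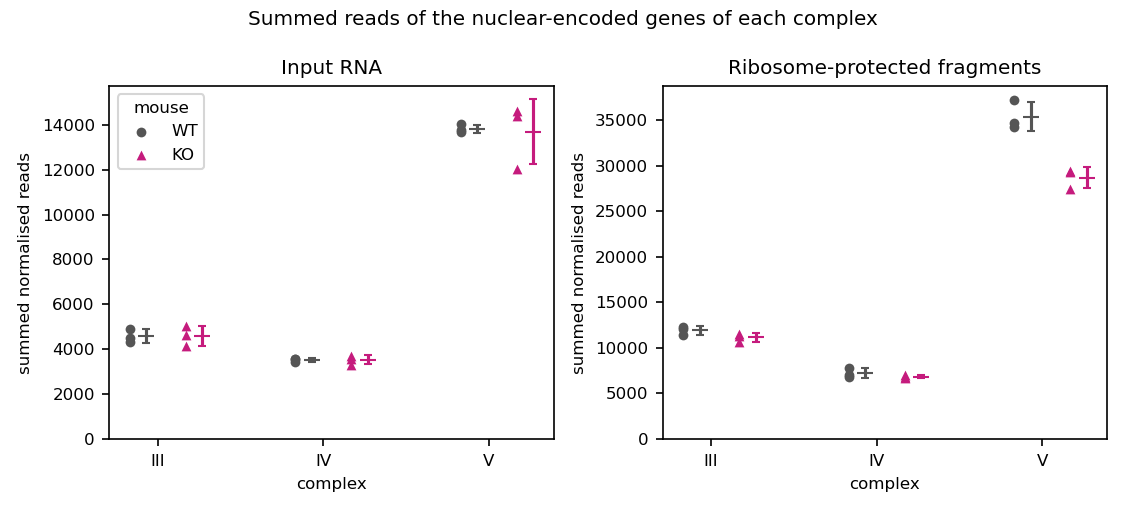
Summed normalised reads of the nuclear-encoded genes of complexes III, IV and V in every mouse (WT circles, KO triangles, crosses with bars for the mean and SD of 3 mice), input on the left and RPF on the right. Only the RPF sums of complex V separate the genotypes, at 35373 ± 1592 in WT and 28689 ± 1139 in KO.

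Gene by gene, 32 of the 35 passed the filter for RPF and TE, which asked for an average normalised value of 10 or more, in the input columns and again in the RPF columns. Cox7a1 failed on input and Cox7a2l and Atp5l on RPF. None of the 32 passed an adjusted p of 0.05 by limma (0.489% of 8994 genes did), and 7 had an unadjusted p under 0.05 (13.4% of all genes). In 7 of 32 every KO mouse lay below every WT mouse (12.9% of all genes), and in 1 every KO mouse lay above (6.97% of all genes). The median log2 fold change was −0.15, against −0.033 for all genes, with 23 of 32 negative where 54% of all genes were. By complex the median was −0.043 in complex III, −0.13 in complex IV and −0.21 in complex V, where 11 of 14 were negative. edgeR on the whole reads also called 0 of the 32 (0.734% of all genes), and an adjusted p under 0.1 by limma held for Atp5j alone (1.6% of all genes). WT mouse 1 had the highest RPF value of the 6 mice in 16 of the 35 genes (45.7%) and in 22.4% of all genes tested. Without it the median was −0.046, against −0.033 for all genes, and −0.17 in complex V. In that fit 18 of 32 genes were negative, where 53.7% of all genes were.

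**Figure D3:**
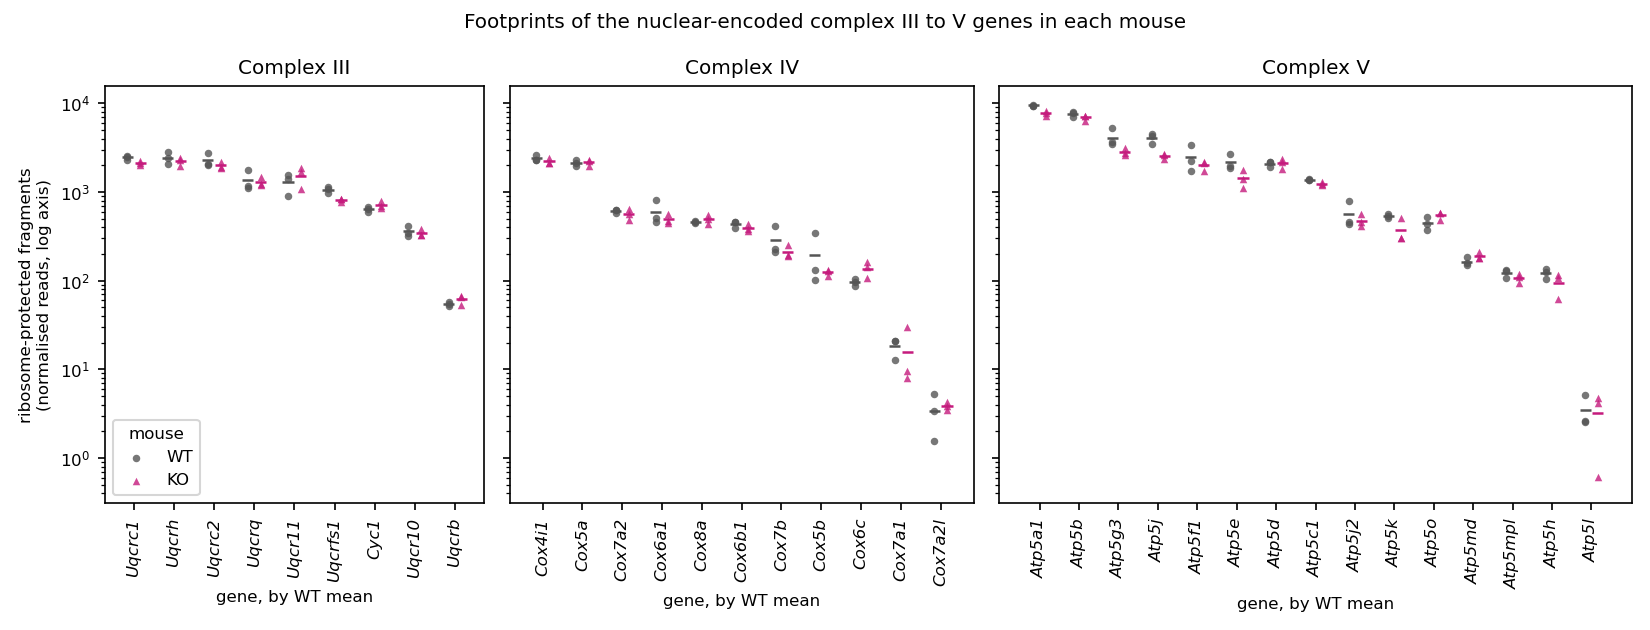
Normalised RPF reads (log axis) of each nuclear-encoded gene of complexes III, IV and V in every mouse, not divided by length, with WT as circles, KO as triangles and short bars for the means. Values run from 9592 for Atp5a1 in WT mouse 1 down to 0.615 for Atp5l in KO mouse 2, and the 2 genotypes separate without overlap for Atp5j, Atp5g3, Atp5e, Atp5a1, Atp5c1, Uqcrc1 and Uqcrfs1, lower in KO, and for Cox6c, higher in KO.

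The lowest RPF fold change was that of Atp5j (chromosome 16 from 84827866 to 84835625 on the minus strand), whose product holds the stalk to the F1 head. It had 3509, 4480.1 and 4301 normalised RPF reads in WT mice 1, 2 and 3 and 2678, 2635 and 2354 in KO mice 1, 2 and 3. Its input overlapped between genotypes, with 844, 726 and 715 normalised input reads in WT and 555, 716 and 873 in KO. The RPF groups did not overlap, and the log2 fold change was −0.67 (SE 0.16, adjusted p = 0.0585 by limma), lower in 3 of 3 litters. With the litter as a block it passed (adjusted p = 0.0138 by limma, a fit in which 3.26% of all genes were called), as it did by limma with a mean of at least 50 (adjusted p = 0.0481, with 1.25% of genes called) or without KO mouse 1 (adjusted p = 0.0251, with 2.52%). The GC content of its CDS was 43.5%, against a median of 52.6% over the genes tested. Across all genes RPF fold change and CDS GC content had a Spearman rho of 0.45, and with that trend removed the value of Atp5j was −0.44 (adjusted p = 0.343 by limma). With the litter block after removal of GC and length trends it was −0.40 (adjusted p = 0.158 by limma). Across the 32 genes the rho was 0.16.

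Atp5g3 (chromosome 2 from 73908447 to 73911326 on the minus strand), the c subunit gene of the table, had 5219, 3462 and 3636 normalised RPF reads in WT and 2748, 3152 and 2641 in KO, and 1240.0, 1407 and 1314 normalised input reads in WT and 1278, 1427 and 1393 in KO. In RPF, WT mouse 1 stood above the other mice, and all 3 KO mice lay below WT mice, for a log2 fold change of −0.51 (SE 0.15, adjusted p = 0.127 by limma). With the litter block it passed (adjusted p = 0.0434 by limma), and without WT mouse 1 it was −0.32 (adjusted p = 0.442 by limma). With the CDS GC trend removed it was −0.42 (adjusted p = 0.327 by limma). With the block after removal of GC and length trends it was −0.37 (adjusted p = 0.203 by limma). Atp5e had 2682, 1957 and 1883 normalised RPF reads in WT and 1791, 1415 and 1119 in KO, again without overlap, and a log2 fold change of −0.60 (SE 0.19, adjusted p = 0.17 by limma). It did not pass with the block (adjusted p = 0.0654 by limma), but did with the block after removal of GC and length trends (adjusted p = 0.031 by limma, with 0.935% of all genes called) and without KO mouse 1 (adjusted p = 0.0403 by limma). With the GC trend alone removed Atp5e had −0.57 (adjusted p = 0.301 by limma). For Atp5g3 and Atp5e alike, normalised input overlapped between genotypes.

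The other ATP synthase genes showed overlap, smaller differences or both. Atp5k, the e subunit that helps complexes pair into dimers, had 563, 509 and 543 normalised RPF reads in WT and 516, 306 and 302 in KO, in which KO mouse 1 lay among the WT values, and a log2 fold change of −0.57 (SE 0.21, adjusted p = 0.246 by limma). Without KO mouse 1 it was −0.82 and passed (adjusted p = 0.0166 by limma). A fit of RPF columns alone with the litter block, added after the data were seen, called Atp5e, Atp5j and Atp5k (3.92% of all genes). Atp5a1 had 9592, 9452 and 9435 normalised RPF reads in WT and 8264, 7771 and 7135 in KO, without overlap, and −0.30 (SE 0.12, adjusted p = 0.286 by limma), and these 2 genes were chosen after their values were seen. In the F1 head Atp5b had 6997, 7973 and 7879 normalised RPF reads in WT and 6379.6, 7179.9 and 7289 in KO. Its log2 fold change was −0.13 (SE 0.13), next to −0.15 (SE 0.12) for Atp5c1, the gamma shaft, and 0.0089 (SE 0.13) for Atp5d. In the stalk, Atp5h had −0.39 (SE 0.20), Atp5f1 −0.24 (SE 0.19) and Atp5o 0.30 (SE 0.16), none of which passed, and Atp5f1 turned to 0.022 without WT mouse 1. In the membrane sector Atp5j2 had −0.19, Atp5mpl −0.18 and Atp5md 0.22, none past the test, and Atp5j2 turned to 0.079 without WT mouse 1.

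In complex IV the 9 genes tested ran from −0.43 to 0.49. Cox6c (chromosome 15 from 35925886 to 35938246 on the minus strand), a small membrane subunit, was the only one with all KO mice above all WT mice, with 88, 104 and 97 normalised RPF reads in WT and 142, 108 and 162 in KO. Its input overlapped, with 503, 506 and 504 normalised input reads in WT and 455, 521 and 477 in KO. The RPF log2 fold change was 0.49 (SE 0.16, adjusted p = 0.16 by limma), higher in 3 of 3 litters. Most of its sequence, shown above, lies in copied windows, and 101 to 205 RPF reads per library stand behind its values. Cox6a1 had 823, 459.9 and 509.6 normalised RPF reads in WT and 567, 447 and 466 in KO, and a log2 fold change of −0.24 (SE 0.18, adjusted p = 0.598 by limma) that turned to 0.020 without WT mouse 1. Cox7b had 417, 229.5 and 209 normalised RPF reads in WT and 255, 195 and 188 in KO, and −0.37 (SE 0.27, adjusted p = 0.599 by limma). In both genes WT mouse 1 stood above the other 5 mice, and without it Cox7b was −0.057. Cox5b, copied in 84.4% of windows, had 347, 102 and 132 normalised RPF reads in WT and 131, 128 and 114 in KO, where WT mouse 1 again stood alone, and −0.43 (SE 0.35), which turned to 0.10 without that mouse. Cox4i1 and Cox5a, which bind the mitochondrially encoded core early in assembly, had −0.11 (SE 0.12) and 0.036 (SE 0.13).

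In complex III the lowest value was that of Uqcrfs1, which takes the first electron from ubiquinol. It had 1136, 1089 and 966 normalised RPF reads in WT and 828, 842 and 767 in KO, with no overlap, and overlapping input of 464, 627 and 578 normalised input reads in WT and 529, 586 and 625 in KO, for an RPF log2 fold change of −0.39 (SE 0.14, adjusted p = 0.219 by limma). Uqcrc1 had 2568, 2293 and 2501 normalised RPF reads in WT and 2021, 2129 and 2244 in KO, also without overlap, and −0.20 (SE 0.13, adjusted p = 0.52 by limma). Uqcrc2 had 2727, 2089 and 2025 normalised RPF reads in WT and 2205, 1901 and 1885 in KO, with overlap, and −0.18 (SE 0.14, adjusted p = 0.594 by limma), or −0.046 without WT mouse 1. The other electron carrier of the complex, Cyc1, had 677, 595 and 643 normalised RPF reads in WT and 665, 703 and 795 in KO, and a log2 fold change of 0.17 (SE 0.13). The small subunits Uqcrb, Uqcrh, Uqcrq, Uqcr10 and Uqcr11 lay between −0.12 and 0.26 on the log2 scale.

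**Figure D4:**
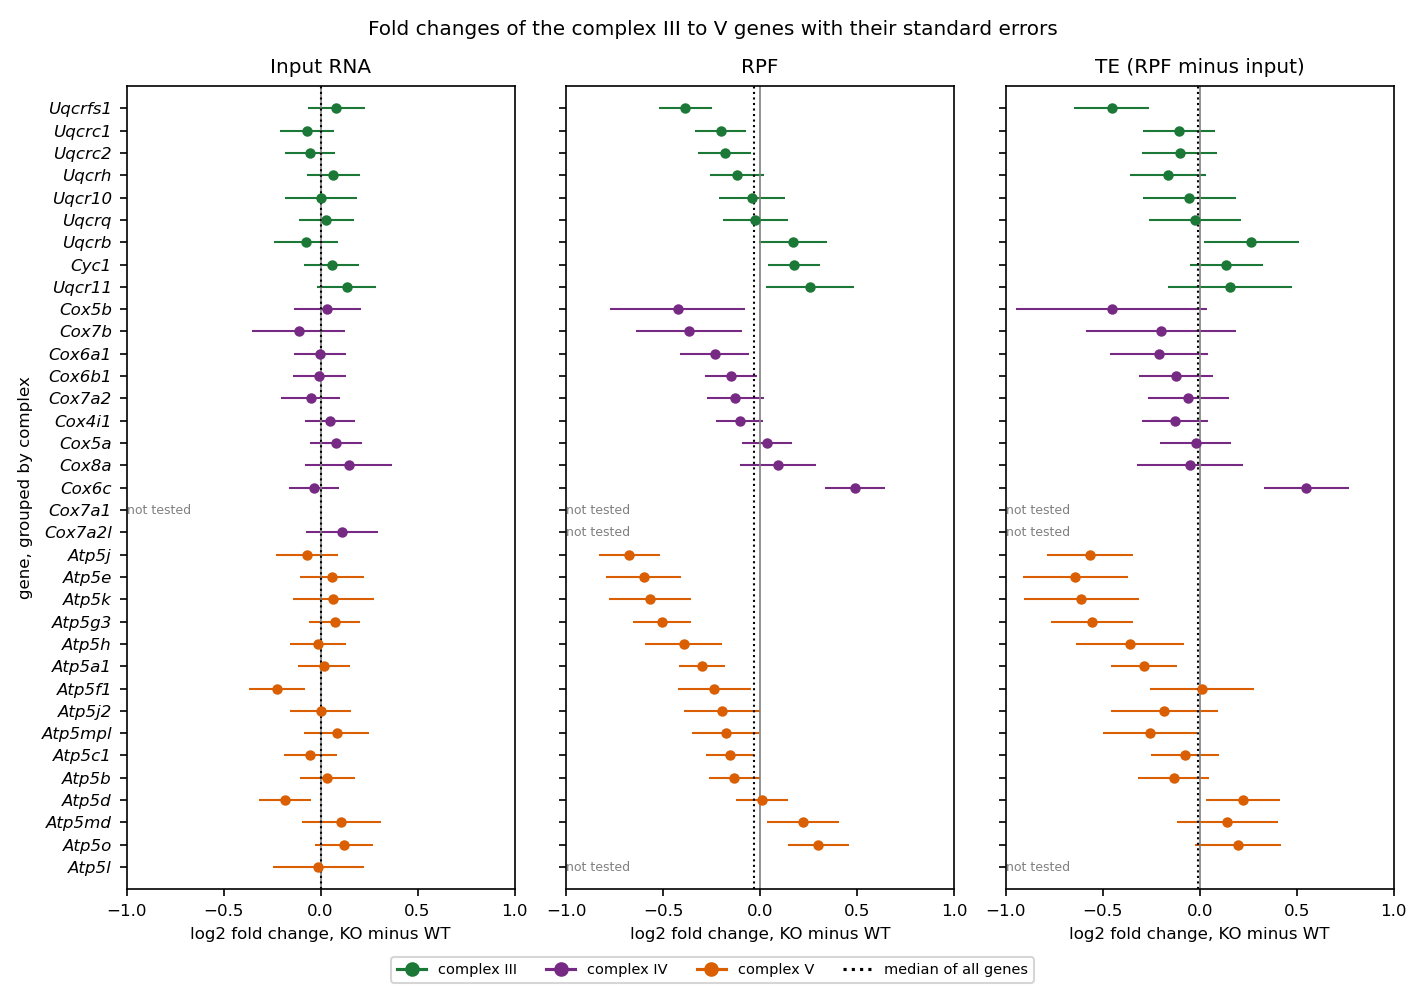
Log2 fold change, KO minus WT, of each gene in input (edgeR), RPF and TE (limma), with standard errors as bars, colours for the complexes, a grey line at 0 and a dotted line at the median of all genes tested. Input values stay within −0.23 and 0.15, RPF values reach −0.67 for Atp5j and 0.49 for Cox6c, and no gene passed an adjusted p of 0.05.

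TE was compared as the difference of the RPF and the input change. None of the 32 genes passed (0% of 8994 genes by limma), and 5 had an unadjusted p under 0.05 (4.7% of all genes). All KO mice lay below all WT mice in 3 genes (7.34% of all genes), Atp5g3, Atp5a1 and Uqcrfs1, and above in 1 (6.08% of all genes), Cox6c. The median difference in log2 TE was −0.12, against −0.011 for all genes. Without WT mouse 1 it was −0.0011, against −0.0047 for all genes. With all mice, the median was −0.054, −0.12 and −0.22 in complexes III, IV and V. In complex V, Atp5e had log2 TE of 1.90, 1.84 and 1.92 in WT and 1.86, 1.18 and 0.70 in KO, a difference of −0.64 (SE 0.27, adjusted p = 0.998 by limma). Atp5j had 2.05, 2.62 and 2.59 in WT and 2.27, 1.88 and 1.43 in KO, with KO mouse 1 inside the WT range, and −0.56 (SE 0.22, adjusted p = 0.998 by limma), and Atp5g3 had 2.07, 1.30 and 1.47 in WT and 1.10, 1.14 and 0.92 in KO, and −0.56 (SE 0.21, adjusted p = 0.998 by limma). Cox6c had −2.50, −2.27 and −2.36 in WT and −1.67, −2.27 and −1.56 in KO, where KO mouse 2 lay barely above WT mouse 2, and 0.55 (SE 0.22, adjusted p = 0.998 by limma). These differences moved with single mice, from −0.95 without KO mouse 1 to −0.37 without KO mouse 3 for Atp5e, and from −0.77 to −0.35 without the same mice for Atp5j. For Atp5g3 the difference was −0.33 without WT mouse 1. WT mouse 1 had the highest TE for Atp5g3 and Uqcrfs1 but not for Atp5j or Cox6c.

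In complexes III and IV the other genes with the smallest TE p had smaller differences or wider errors. Uqcrfs1 had 1.29, 0.80 and 0.74 in WT and 0.64, 0.52 and 0.30 in KO, a difference of −0.45 (SE 0.19, adjusted p = 0.998 by limma), or −0.28 without WT mouse 1. Uqcrb had 0.27 (SE 0.24, adjusted p = 0.998 by limma), Uqcrh −0.16 (SE 0.20, adjusted p = 0.998 by limma), Cox5b −0.45 (SE 0.49, adjusted p = 0.998 by limma) and Cox6a1 −0.21 (SE 0.25, adjusted p = 0.998 by limma). As levels, the median log2 TE of complex III in mice 1, 2 and 3 was 1.29, 1.16 and 0.86 in WT and 1.14, 1.14 and 1.10 in KO. That of complex IV was 1.29, 0.49 and 0.41 and 0.49, 0.16 and 0.031, and that of complex V 1.40, 1.22 and 1.18 and 1.16, 0.96 and 0.78. In complex V all KO medians lay below all WT medians, the closest being 1.16 in KO mouse 1 and 1.18 in WT mouse 3. These medians cover all genes of each complex, including Atp5l, Cox7a2l and Cox7a1, which failed the filter. The order in complex V holds only with Atp5l included, and it was not tested. Over all genes tested the medians were 0.080 ± 0.015 in WT and 0.072 ± 0.0070 in KO (SD, n = 3).

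The other genes that build or control the complexes were counted whole. Among 22 assembly factors of complex IV tested in RPF, 0 passed by limma, and 4 had an unadjusted p under 0.05, as 13.4% of all genes did. The median log2 fold change was −0.063. The smallest p was that of Cox14, which regulates synthesis of the mitochondrial core subunit, with 35, 32 and 70 RPF reads in WT and 91, 91 and 62 in KO (log2 fold change 0.91, SE 0.22, adjusted p = 0.0709 by limma), and Coa6 had the widest value, 0.92 (SE 0.35). The 5 factors of complex III had a median of −0.18, with Uqcc3 at 0.78 (SE 0.24), and the 4 of complex V a median of 0.28, against −0.21 for the ATP synthase genes themselves. The 8 regulators, among them Ppargc1a, Nrf1, Gabpa and Tfam, had a median of −0.10 and 0 calls. Of subunits with other symbols, Ndufa4, a complex IV subunit in spite of its name, had −0.071 and Atpif1, the inhibitor of the ATP synthase, −0.055 (SE 0.15 and 0.21). The mitochondrial core genes tested in RPF, mt-Cytb of complex III and mt-Co1 of complex IV, had 0.26 and −0.17 (SE 0.25 and 0.13). In input none of these lists had a gene past the test in edgeR, with medians of 0.26, 0.030 and 0.20 for the assembly factors of complexes III, IV and V, −0.030 for the regulators and 0.12 for 5 mitochondrial genes.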

How the data were processed

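Input and RPF libraries of 3 WT and 3 KO livers were used, with groups taken from the labels. The deposited input counts were read pairs per gene, made by the authors with BBDuk trimming, STAR 2.7.3a against mm10, uniquely mapped reads and strand-specific featureCounts (1.6.0 per the labels). The deposited normalised signal came from RiboToolkit, which for RPF allowed a single mapping location and removed no duplicates. These values were 100% whole multiples of 1 step per library (tolerance 0.001), without division by gene length, so they were reads over 1 factor per library; the factors and the gene filter are not given in the sources used here, nor is whether footprints were placed on the genome or on transcripts. The same file holds the authors' fold changes and p-values, which were not used. Depth is given in the text. An input count is a sample of reads, and precision was taken from the spread between mice.

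Input counts were tested with edgeR 4.0.16 (TMM, filterByExpr, robust quasi-likelihood) in R 4.3.3. For RPF and TE, limma 3.58.1 (trend and robust) was run on log2(value + 1) of 8994 genes whose mean reached 10 in both kinds of column. It was a fit of 4 group means over 12 libraries, in which the input and RPF libraries of 1 mouse were treated as independent. TE was the RPF minus the input change, and fold changes of low genes are understated on this scale. P-values were adjusted by Benjamini-Hochberg over all genes tested. CDS, lengths and copies came from GENCODE M21 and GRCm38. Named genes were those called, the 3 with the smallest p per complex and comparison, Cycs, and paralogues. The genes, lists and tests were chosen with earlier results of these data known. WT and KO mice with the same number in the labels were taken as littermates. Their deviations from group means correlated at 0.0816 to 0.127 in input and 0.144 to 0.242 in RPF, so a litter block was run as an alternative. For TE, a block of mouse and a fit of TE per mouse with the litter block were also run. The other alternatives were DESeq2 1.42.0, other scalings, filters, pseudocounts, GC and length trends, edgeR on the whole reads, and leaving out each mouse. Scripts were tested on simulated data.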

Additional observations from a re-analysis of the deposited data

How the results depend on the processing

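Results were recomputed with 1 choice changed at a time, except where a fit below names a block together with another change. Of 619 alternatives of 45 results, 589 kept the direction and the side of the threshold or stayed within the spread, and 10 passed the threshold where the reported fit did not. A further 11 reversed the direction and 9 moved otherwise. The 589 include counts of calls that stayed at 0 and values far from the threshold. The count of the 35 genes called in RPF, 0 as reported, was 1 at an adjusted p of 0.1 (Atp5j), 1 with a mean of at least 50 (Atp5j), 2 with the replicate block of litter (Atp5j and Atp5g3), 1 with that block after removal of CDS GC and length trends (Atp5e), and 3 with RPF columns alone and the block (Atp5e, Atp5j and Atp5k), an alternative chosen after the data were seen. The shares of all genes called in these fits were 1.6%, 1.25%, 3.26%, 0.935% and 3.92%. edgeR on the whole reads called 66 genes in RPF and 0 of the 35. Leaving out 1 mouse gave 0 to 3 calls in RPF, the highest without KO mouse 1 (Atp5e, Atp5j and Atp5k, with 2.52% of all genes called). The median RPF change was then −0.18 to −0.046, nearest to 0 without WT mouse 1. The median TE change ran from −0.23 without KO mouse 1 to −0.0011 without WT mouse 1. The cause was not tested. Input calls by edgeR and DESeq2 and TE calls by limma and edgeR were 0 among these genes under all alternatives run, and the block changed no other call. Some values that had not passed turned sign. On leaving out 1 mouse, the input ranges were −0.015 to 0.26 for Uqcr11, −0.031 to 0.17 for Uqcrfs1, −0.15 to 0.017 for Uqcrc1, −0.052 to 0.33 for Cox8a, −0.015 to 0.23 for Cox7a2l and −0.15 to 0.20 for Cox7c. They were −0.40 to 0.020 for RPF and −0.36 to 0.063 for TE of Cox6a1, and −0.96 to 0.12 for TE of Cox5b, each positive only without WT mouse 1. Among the other RPF values of these genes, Cox5b (0.10), Atp5f1 (0.022), Atp5j2 (0.079), Uqcrq (0.18), Uqcr10 (0.060) and Cox5a (−0.023) turned sign without WT mouse 1, Atp5d (−0.074) without KO mouse 1, and Atp5mpl (0.054), Cyc1 (−0.0053), Atp5d (−0.25) and Cox8a (−0.25) with the CDS GC trend removed. Depth limits Cox7a2l and Atp5l most, at 1 to 7 RPF reads per library.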
